A study of Mus musculus with 199 samples.

Results

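DNA replication depends on a set of genes whose transcripts rise together as cells pass from G1 into S phase, and 46 of them were followed here in 199 RNA-seq libraries from a mouse model of small-cell lung cancer. The members were picked by gene symbol from a table of 31581 genes. By role they are 4 licensing genes (Orc1, Orc6, Cdc6, Cdt1), 6 MCM helicase subunits (Mcm2 to Mcm7) and 10 genes of helicase activation and origin firing (Mcm10, Cdc45, Gins1 to Gins4, Cdc7, Dbf4, Ccne1, Ccne2). A further 5 encode polymerases and primase (Pola1, Pold1, Pole, Prim1, Prim2) and 9 encode the sliding clamp, its loader and the single-strand binding protein RPA (Pcna, Rfc1 to Rfc5, Rpa1 to Rpa3). The last 12 serve Okazaki fragment processing (Fen1, Lig1), nucleotide supply (Rrm1, Rrm2, Tyms, Tk1, Dut), and chromatin assembly, histone mRNA handling and repair (Chaf1a, Chaf1b, Uhrf1, Slbp, Brca1). The comparisons set culture against liver, and an immunocompromised host against an immunocompetent one.

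The KP1 line (genotype Rb1-/-Trp53-/-) was sampled as explanted spheroids (28 libraries), as liver colonies in immunocompromised nude hosts (33 libraries), and as liver colonies in immunocompetent F1 hosts (31 libraries). Each of these libraries came from 10 cells cut from a cryosection by laser. Pool-and-split controls, in which material was pooled and divided again, numbered 20 for spheroids, 35 for nude liver and 24 for F1 liver. The RPC line, pre-cancerous cells of genotype Rb1-/-Trp53-/-p130-/+Crebbp-/-, gave 24 libraries of 10 spheroid cells. Whole-spheroid bulk RNA gave 1 library for each of KP1, KP2 (Rb1-/-Trp53-/-Ptch1+/lacz), KP3 (Rb1-/-Trp53-/-Axin2+/lacz) and KP5 (Rb1-/-Trp53-/- BAT-GAL). By label all these genotypes are Rb1-/-, while libraries from liver can also hold host cells that carry Rb1. The labels give no number of animals, cultures or pools and no age of the hosts, so p-values measure the spread between captures, which may be partly technical. Pool-and-split libraries are divisions of pooled material, so p-values among pools rest on technical spread and say nothing of how animals or cultures vary.

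Origins are licensed in G1 when the origin recognition complex, Cdc6 and Cdt1 load the MCM helicase. The kinase pair Cdc7 and Dbf4 and the cyclin E kinases then activate the helicase through Cdc45 and the GINS complex, and polymerases copy DNA behind it with the help of the PCNA clamp. E2F transcription factors drive most of these genes, the RB protein holds E2F in check, and loss of RB is a hallmark of small-cell lung cancer.

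The E2F consensus was searched in RefSeq promoters (250 bases before to 50 after each start, 300 bases in all, GRCm38.p6) as TTTCCCGC, TTTCGCGC, TTTGCCGC or TTTGGCGC on either strand. Of the 46 members, 38 had a promoter in the table, and 13 of these (34.2%) held at least 1 match, against 704 of 27025 genes (2.60%) and 317 of the 6050 with a promoter that were tested between nude liver and spheroid captures (5.24%). Outside the members, a match was found in 9 of 27 other replication genes (33.3%) and 7 of 15 other E2F targets (46.7%). Matches were found in 4 of 5 MCM genes, 3 of 4 licensing genes and 2 of 3 polymerase genes, but in 0 of 5 nucleotide supply genes and 1 of 8 clamp, loader and RPA genes. The other roles gave 1 of 6 for helicase activation and firing, 1 of 2 for Okazaki fragments, and 1 of 5 for chromatin assembly, histone mRNA and repair. The stretches below, 40 bases each and 5′ to 3′ on the gene's strand, are examples from 6 of these 13 members, shown so that the letters of a match can be seen, with the matched bases in capitals. Matches of the others, Lig1 and Pold1 among them, are not printed.
Cdc6: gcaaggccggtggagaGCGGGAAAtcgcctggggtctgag
Mcm5: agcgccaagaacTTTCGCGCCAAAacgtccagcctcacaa
Mcm6: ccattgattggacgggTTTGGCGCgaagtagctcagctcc
Pola1: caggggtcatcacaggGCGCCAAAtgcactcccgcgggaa
Rfc3: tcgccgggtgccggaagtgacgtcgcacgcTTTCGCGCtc
Uhrf1: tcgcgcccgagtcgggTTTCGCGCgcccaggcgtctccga
They lie at chr11:98907997-98908036 (plus strand) for Cdc6, chr8:75109344-75109383 (plus strand) for Mcm5, chr1:128359729-128359768 (minus strand) for Mcm6, chrX:93632270-93632309 (minus strand) for Pola1, chr5:151651209-151651248 (minus strand) for Rfc3 and chr17:56304112-56304151 (plus strand) for Uhrf1. The capitals in Mcm5 cover 2 overlapping matches, and the promoters of Mcm6 and Rfc3 hold further matches outside the stretch shown. A match is a description of the letters and not of a bound site.

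Total counts ran from 1007999 to 7616756 in the captures and pools and from 17266203 to 42447973 in the bulk libraries. Spike-in (ERCC) transcripts took over 5% of the counts in 3 of 33 nude liver captures, 5 of 31 F1 captures, 24 of 35 nude pools and 22 of 24 F1 pools, and in 0 spheroid or RPC libraries. Neuroendocrine markers, which define the tumour cell type, were present in every liver group, with summed levels of 37.6 to 2388 CPM (counts scaled to a common total of gene counts) in nude liver captures, 634 to 4767 in F1 captures and 652 to 2583 in spheroid captures. Hepatocyte markers summed to 33.4 to 4232 CPM in nude liver captures, 0 to 1689 in F1 captures and 0 to 83.6 in spheroid captures, where Alb and 5 of the other 11 markers were at 0. Erythrocyte markers summed to 0.593 to 3743, 0 to 32920.5 and 0 to 31.3 CPM in the same order, and endothelial and stellate markers to 64.8 to 914, 1.29 to 813 and 0.706 to 189 CPM. MHC class II and macrophage markers reached 266 CPM in nude and 935 in F1 captures, and T and NK cell markers 30.5 and 106. Of the deleted genes, Rb1 gave a lowest, median and highest value of 2.50, 19.4 and 85.1 CPM in spheroid captures, 0, 13.2 and 178 CPM in nude liver, 0, 4.81 and 56.0 CPM in F1 liver and 0, 16.6 and 148 CPM in RPC, and the bulk lines gave 143 to 193 CPM. The values are per whole gene, so reads from outside a deleted part are included and this level does not check the deletion. A capture holds the RNA of all its cells, so a lower member level can mean fewer tumour cells or less of that RNA per cell, and these cannot be told apart.

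In plain CPM, the summed level of the 46 members differed between groups by no more than about its spread between libraries. After TMM scaling the group means lay further apart, and the spread of the scaled sums was not taken. The edgeR tests use TMM, with factors computed within each comparison. It was 6124 ± 1353 CPM (mean ± SD, n = 28) in spheroid captures, 5972 ± 1419.9 (n = 33) in nude liver, 5901 ± 1639 (n = 31) in F1 liver and 7014 ± 1439 (n = 24) in RPC captures. The pools gave 6881 ± 1001 for spheroids (n = 20), 6550.4 ± 1414 for nude liver (n = 35) and 7388 ± 2135 for F1 liver (n = 24). Every other group's mean lay within 1 SD of the mean of the spheroid captures. Scaled by TMM factors, the means were 6285 CPM in spheroid, 5437 in nude liver, 7274 in F1 liver and 6461 in RPC captures. The pools then spread further apart, at 5855 for spheroids, 6452 for nude liver and 9454 for F1 liver. The median number of members with counts was 44 of 46 in spheroid captures, 42 in nude and in F1 liver captures, and 46 in RPC captures.

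**Figure D1:**
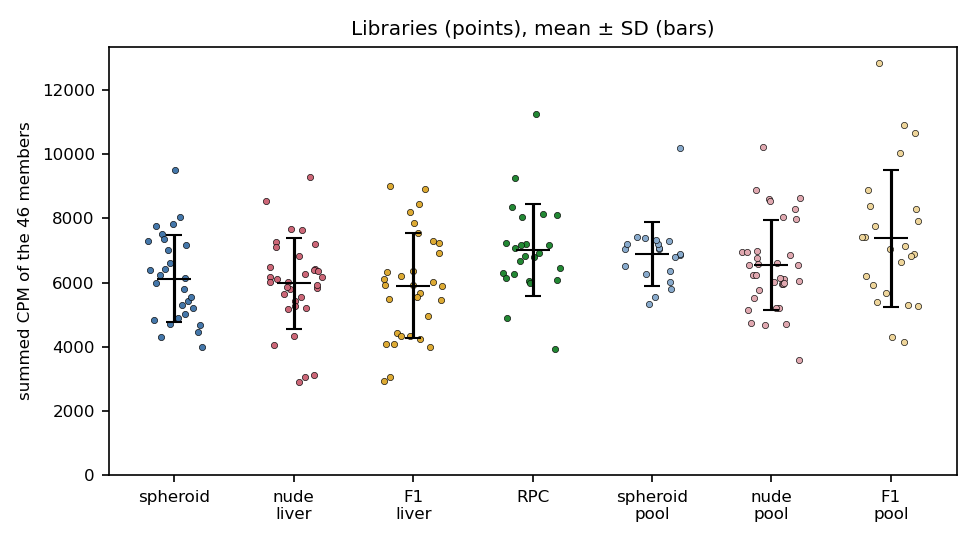
Summed CPM of the 46 members in each library (points, linear axis), with the mean and SD of each group (bars), for the captures and the pool-and-split controls. Without TMM scaling the group means sit between 5901 and 7388 CPM, and the libraries of all groups overlap.

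Single members moved in opposite directions between nude liver and spheroid captures. Of the 44 members that passed the filter on low counts, 7 were higher in nude liver (Dbf4, Rfc1, Rfc2, Rfc5, Rpa1, Lig1, Uhrf1) and 8 were lower (Cdc7, Pcna, Rfc3, Rfc4, Rrm1, Rrm2, Dut, Slbp) at a Benjamini-Hochberg adjusted p under 0.05 in edgeR's quasi-likelihood test. That is 34.1% of the tested members, near the background of 33.8% of all 7834 genes tested, of which 17.7% were called higher and 16% lower. The members had a median of -0.45 on the log2 scale, and all tested genes one of -0.03. Dbf4, Rfc1, Rfc2, Pcna and Dut kept their call when each library's mean hepatocyte marker level entered as a covariate, and the other 10 called members did not. That covariate largely follows the group, so a lost call does not tie a member to hepatocytes. Orc1 and Rpa3 did not pass the filter.

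**Figure D2:**
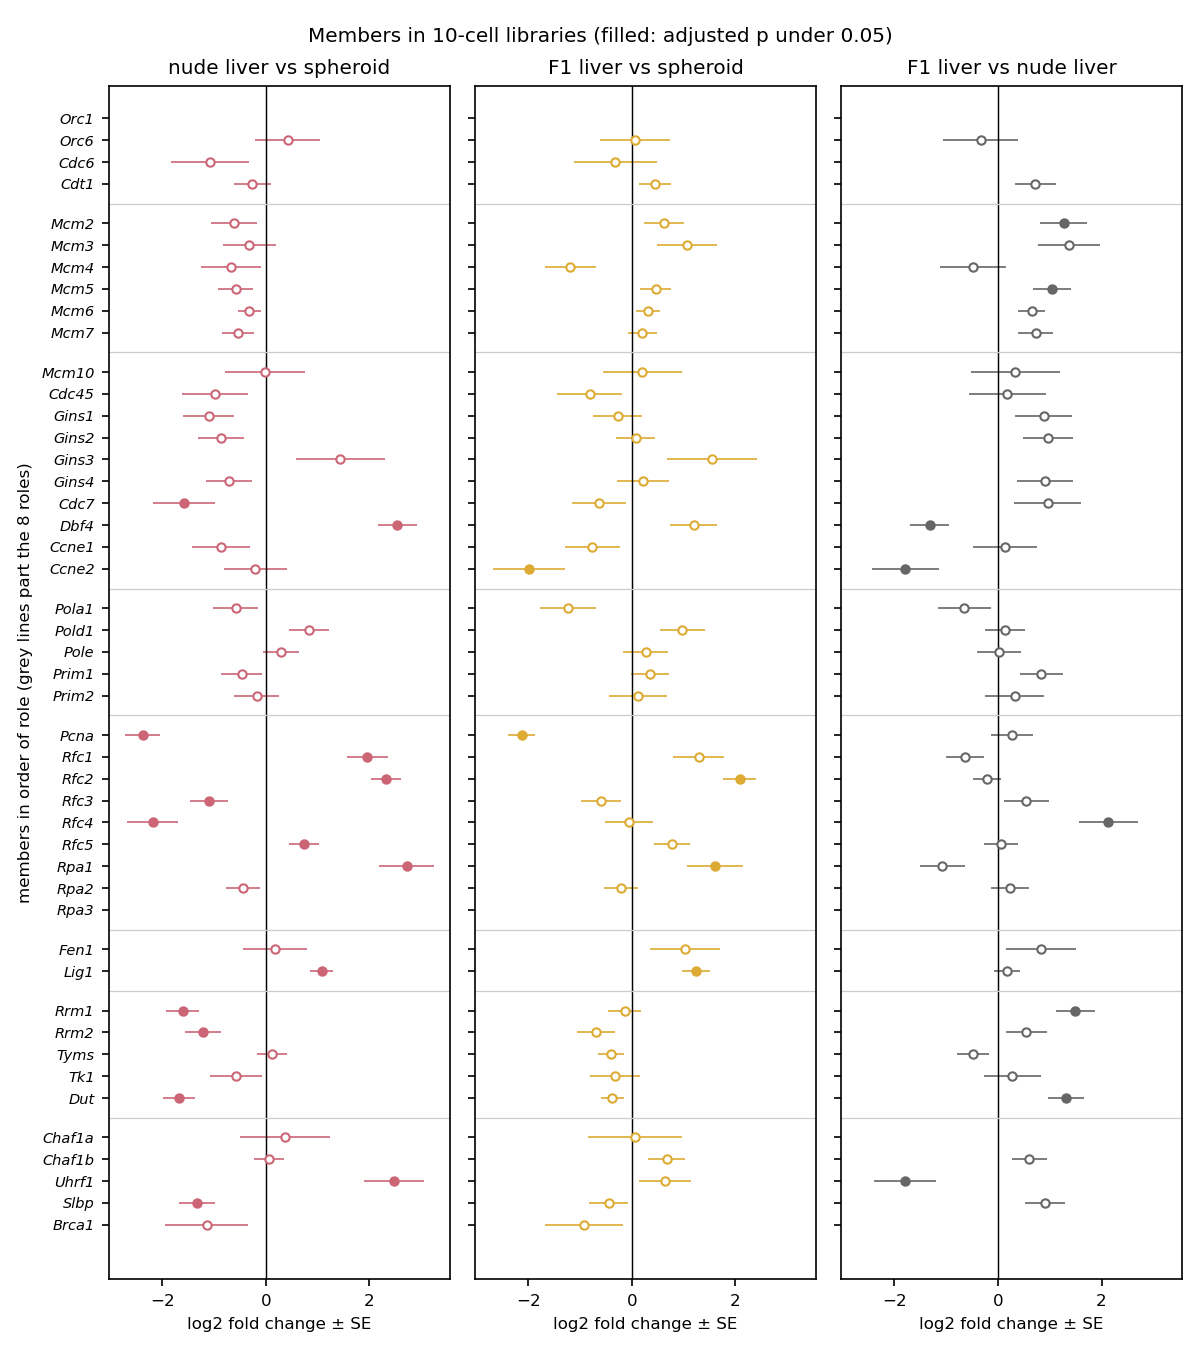
Log2 fold change with its SE for each tested member in 3 comparisons of 10-cell libraries, ordered by role, with filled points for an adjusted p under 0.05. In nude liver the clamp, its loader and RPA hold called members on both sides of 0, from -2.38 for Pcna to 2.72 for Rpa1.

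The clamp, its loader and the single-strand binding protein held the most called members, 7 of 8 tested, 4 of them higher and 3 lower, beside 33.8% of all genes. Pcna encodes the ring that tethers polymerases to DNA (chr2:132249162-132253314, GRCm38). Its lowest, median and highest values were 161, 290.3 and 667 CPM in spheroid captures and 0, 71.3 and 214 CPM in nude liver captures. All 33 nude liver captures were below the spheroid median, and 29 were below the lowest spheroid capture. The fall was 5.22-fold (a log2 fold change of -2.38 ± 0.34, adjusted p = 5.54e-08, where ± gives the SE of a log2 fold change throughout). Pcna can share reads with a near-identical processed pseudogene, Pcna-ps2, whose own median was 341 CPM in spheroids and 49.6 in nude liver, with highest values of 943 and 335. With the counts of both summed, the log2 fold change was -2.33 (adjusted p = 2.68e-07).

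The 5 subunits of replication factor C, which load the clamp, did not move together. Rfc2 gave 0.341, 175 and 464 CPM in spheroids and 151, 903 and 3502 CPM in nude liver, where 31 of 33 captures exceeded the highest spheroid capture. It rose 5.00-fold (a log2 fold change of 2.32 ± 0.28, adjusted p = 6.13e-10). Rfc1, the large subunit, gave 0.238, 20.0 and 175 CPM in spheroids and 19.4, 132 and 496 CPM in nude liver (a log2 fold change of 1.96 ± 0.40, adjusted p = 7.05e-05). The 2 groups overlapped for Rfc1, with 32 of 33 nude captures above the spheroid median. Rfc4 went the other way, from 2.42, 116 and 996 CPM in spheroids to 0, 27.9 and 273 CPM in nude liver (a log2 fold change of -2.18 ± 0.49, adjusted p = 0.000299). Rfc3 was also lower (a log2 fold change of -1.10 ± 0.37, adjusted p = 0.0154), with 29 of 33 nude captures below the spheroid median. Rfc5 was higher by a small amount (a log2 fold change of 0.73 ± 0.29, adjusted p = 0.0429), and without the nude capture with the most Rfc5 this call was lost (0.70 ± 0.29, adjusted p = 0.0557).

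Rpa1, the large subunit of the protein that coats single-stranded DNA, was also called higher. Its values were 0.221, 6.89 and 201 CPM in spheroids and 0.838, 65.3 and 629.5 CPM in nude liver (a log2 fold change of 2.72 ± 0.53, adjusted p = 3.05e-05). The groups overlapped, and 31 of 33 nude captures were above the spheroid median. Rpa2, its partner, had a log2 fold change of -0.44 ± 0.32 (adjusted p = 0.298). Rpa3 was near the limit of detection, with a highest value of 4.33 CPM in spheroids and counts in 13 of 33 nude captures.

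The kinase that fires origins showed the same split between its subunits. Dbf4, the regulatory subunit, gave 2.33, 9.60 and 68.3 CPM in spheroids and 13.4, 85.9 and 322 CPM in nude liver. All 33 nude captures were above the spheroid median and 19 were above the highest spheroid capture, a 5.82-fold rise (a log2 fold change of 2.54 ± 0.38, adjusted p = 1.04e-07). Cdc7, the catalytic subunit, gave 0.860, 54.6 and 227 CPM in spheroids and 0, 5.44 and 275 CPM in nude liver, with no counts in 8 of 33 captures (a log2 fold change of -1.58 ± 0.59, adjusted p = 0.0318). Without the nude capture with the most Cdc7 the value was -2.24 ± 0.58, adjusted p = 0.0015. No other gene of helicase activation was called. The 4 GINS subunits and Cdc45 ranged from -1.11 ± 0.49 for Gins1 to 1.44 ± 0.86 for Gins3, and the cyclins E gave -0.87 ± 0.56 for Ccne1 and -0.20 ± 0.61 for Ccne2.

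Nucleotide supply was lower in 3 of its 5 genes and higher in 0, where 16% of all genes were lower. Rrm1, the large subunit of ribonucleotide reductase, which makes deoxynucleotides, gave 35.3, 381 and 1013 CPM in spheroids and 2.55, 119 and 660.2 CPM in nude liver (a log2 fold change of -1.61 ± 0.33, adjusted p = 5.85e-05). Dut, which removes dUTP, gave 329.9, 662 and 1028 CPM in spheroids and 0, 199 and 675 CPM in nude liver, where 23 of 33 captures were below the lowest spheroid capture (a log2 fold change of -1.68 ± 0.31, adjusted p = 1.29e-05). Rrm2, the small reductase subunit, was lower as well (a log2 fold change of -1.21 ± 0.34, adjusted p = 0.00396). Tyms, thymidylate synthase, and Tk1, thymidine kinase, were not called, at 0.12 ± 0.29 and -0.58 ± 0.50 on the log2 scale.

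The MCM helicase subunits, the licensing genes and the polymerases were not called in nude liver captures. All 6 MCM genes had negative log2 fold changes, between -0.67 ± 0.57 for Mcm4 and -0.32 ± 0.52 for Mcm3, and 0 passed at an unadjusted p under 0.05. Mcm6 gave 251, 584 and 1357 CPM in spheroids and 9.75, 539 and 1830.3 CPM in nude liver, so the medians were close and the nude range was wider. Lig1, the ligase that seals Okazaki fragments, rose from 9.65, 187 and 588 CPM to 40.4, 383 and 1067 CPM (a log2 fold change of 1.08 ± 0.23, adjusted p = 0.000136), with 30 of 33 nude captures above the spheroid median. Slbp, which binds the stem-loop of histone mRNAs, was lower, from 11.0, 194 and 626 CPM to 0, 70.3 and 331 CPM (a log2 fold change of -1.33 ± 0.35, adjusted p = 0.00173). Uhrf1, which brings DNA methyltransferase to replicated DNA, gave 0, 3.03 and 29.5 CPM in spheroids and 0, 7.34 and 632 CPM in nude liver (a log2 fold change of 2.48 ± 0.58, adjusted p = 0.000478). Its highest nude capture held 632 CPM, and without that library the log2 fold change was 1.25 ± 0.47, adjusted p = 0.0326.

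**Figure D3:**
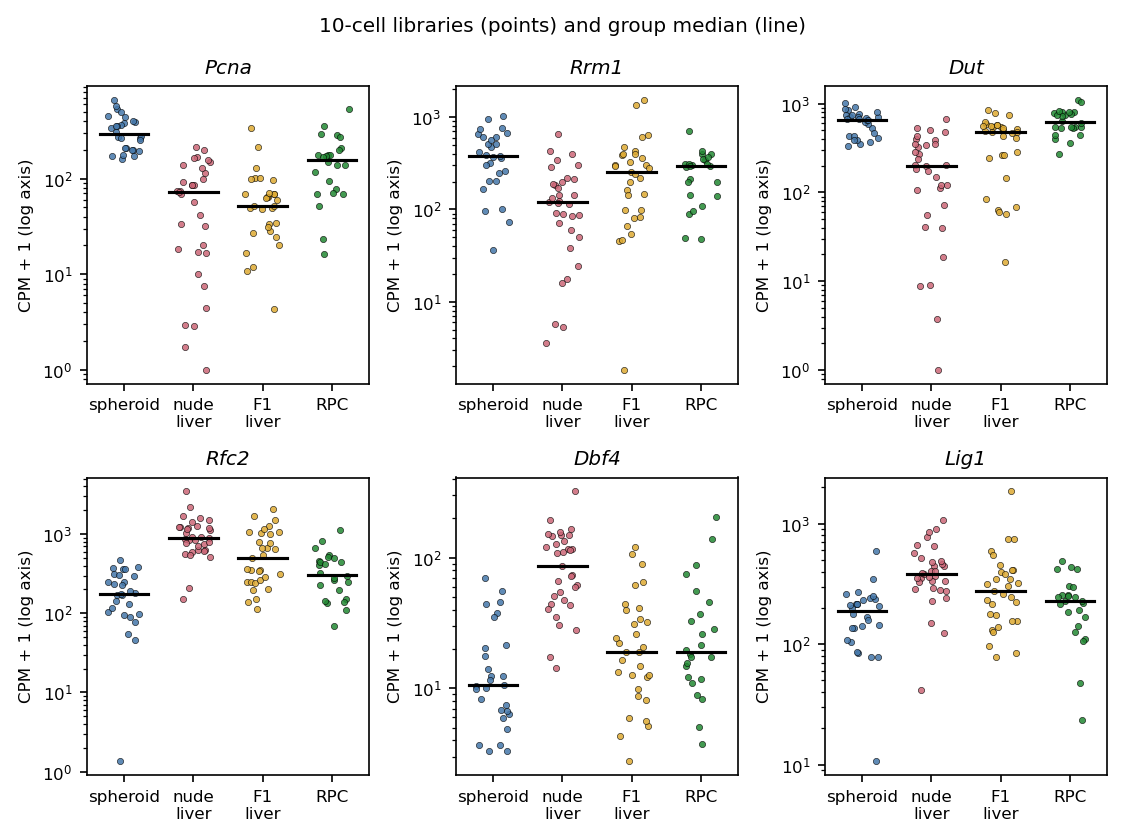
CPM + 1 (log axis) of 6 members in each 10-cell library (points) with the group median (line), for KP1 spheroids, nude liver, F1 liver and RPC spheroids. Pcna is lower in both liver groups, Rfc2 is higher in both, and Dbf4 is high in nude liver with an F1 median of 18.1 CPM.

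Hepatocyte markers and the spike-in share moved with this comparison, and 6 of 9 tested neuroendocrine markers were lower in nude liver (summed mean 1255 ± 529 CPM against 1903 ± 443). With each library's mean hepatocyte marker level as a covariate, 4 members were called higher and 2 lower in nude liver, as were 664 and 294 of all 7834 genes. Against only the 9 spheroid captures with at least 0.1% ERCC counts, 5 were called higher and 3 lower, as were 1179 and 678 of all 9507 genes tested. Dbf4, Rfc1, Rfc2, Pcna and Dut were called in both settings. With the covariate the log2 fold change of Pcna was -2.82 (adjusted p = 0.0122), that of Rfc2 was 1.91 (adjusted p = 0.0051) and that of Dbf4 was 3.34 (adjusted p = 0.000364). Of the members called higher without it, Rpa1 was at 2.30 (adjusted p = 0.141), Uhrf1 at 3.02 (adjusted p = 0.205), Rfc5 at 0.59 (adjusted p = 0.534) and Lig1 at 0.28 (adjusted p = 0.75). Of those called lower, Rfc4 was at -2.78 (adjusted p = 0.155), Cdc7 at -2.38 (adjusted p = 0.308), Rfc3 at -1.40 (adjusted p = 0.288), Rrm1 at -1.22 (adjusted p = 0.329), Rrm2 at -1.18 (adjusted p = 0.279) and Slbp at -0.70 (adjusted p = 0.617). These 10 lost the call and kept their direction, with a log2 fold change larger in size than without the covariate for Uhrf1, Rfc4, Cdc7 and Rfc3 and smaller for the other 6. Summed hepatocyte markers had a median of 1.45 CPM in spheroid and 820 CPM in nude liver captures, so the covariate largely follows the group. A call lost or kept with it therefore cannot tell which members depend on hepatocyte RNA. The part of the other cell types in the remaining calls was not tested. Without the 3 nude captures over 5% ERCC, 6 members were called higher and 8 lower, as were 1192 and 1335 of all 7725 genes tested.

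The same comparison was made between pool-and-split libraries, which are not further biological replicates. Of 44 tested members, 7 were higher in nude liver pools (Dbf4, Pold1, Rfc1, Rfc2, Rpa1, Lig1, Tyms) and 7 lower (Cdc6, Mcm2, Mcm5, Cdc7, Pcna, Rfc3, Rrm1), 31.8% against a background of 25.7% of 8010 genes (16.5% higher, 9.14% lower). limma-voom called 6 members higher and 26 lower, but all genes shifted with it, to 1286 higher and 3491 lower and from a median of 0.16 to -1.09. In captures limma-voom called 8 members higher and 19 lower, and 1762 of all genes higher and 2100 lower. RLE scaling called 4 members higher and 8 lower, and 1168 of all genes higher and 995 lower. It moved the median of all genes from 0.16 to -0.06. In captures and pools alike, 9 members were called and had the same sign: Dbf4, Rfc1, Rfc2, Rpa1 and Lig1 higher, and Cdc7, Pcna, Rfc3 and Rrm1 lower. These are 60.0% of the members called in captures and 64.3% of those called in pools. Over all genes tested in both, the shared calls were 49.2% and 69.3%. Against only the 6 spheroid pools with at least 0.1% ERCC counts, 1 member was called higher and 1 lower, as were 566 and 210 of all 9498 genes tested. With the hepatocyte covariate, which largely follows the group here too, 3 members were higher and 4 lower, as were 722 and 371 of all 8010 genes. Of the 9 shared members, Dbf4, Rfc3 and Lig1 kept their call in pools with that covariate. Pcna lost it at -1.73 (adjusted p = 0.297), Rfc2 at 1.70 (adjusted p = 0.111) and Rrm1 at -2.82 (adjusted p = 0.151), while Rfc1 was at 2.10 (adjusted p = 0.122), Cdc7 at -3.87 (adjusted p = 0.194) and Rpa1 at 0.66 (adjusted p = 0.788), none of them called.

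**Figure D4:**
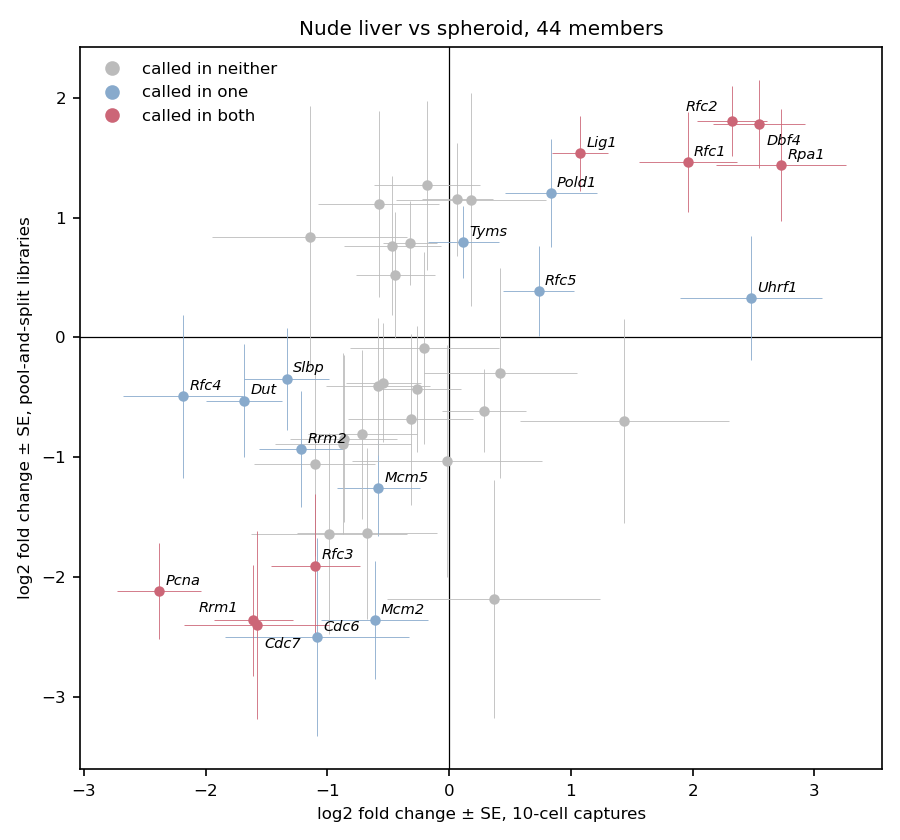
Log2 fold change with its SE, nude liver against spheroid, for 44 members in 10-cell captures (x axis) and in pool-and-split libraries (y axis). The 9 members called in both sit in the upper right and lower left corners, from Pcna at -2.38 and -2.12 to Rpa1 at 2.72 and 1.44.

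In the pools Pcna gave 179, 383 and 731 CPM in spheroids and 1.82, 37.1 and 879 CPM in nude liver, with 33 of 35 nude pools below the lowest spheroid pool (a log2 fold change of -2.12 ± 0.40, adjusted p = 2.79e-05). Rfc2 gave 124, 331 and 671 CPM in spheroids and 107, 859 and 4170.4 CPM in nude liver (a log2 fold change of 1.80 ± 0.29, adjusted p = 1.11e-06). Rrm1 fell from 52.5, 478 and 775 CPM to 0.704, 23.6 and 511 CPM (a log2 fold change of -2.36 ± 0.46, adjusted p = 4.62e-05), and the difference between the effects in captures and pools was 0.57 ± 0.56 (adjusted p = 0.691). Mcm2, not called in captures (-0.61 ± 0.44), fell in pools from 62.0, 208 and 467 CPM to 0, 16.4 and 252 CPM (a log2 fold change of -2.36 ± 0.50, adjusted p = 0.00015). Mcm5 was lower (a log2 fold change of -1.26 ± 0.40, adjusted p = 0.014), as was Cdc6, the helicase loader, which had no counts in 21 of 35 nude pools against a median of 14.9 CPM in spheroid pools, through which it passed the filter (adjusted p = 0.0187). With the hepatocyte covariate Mcm5 lost its call at -2.37 (adjusted p = 0.109), while Mcm2 and Cdc6 kept theirs (adjusted p = 0.0356 and 0.00106). Pold1, the catalytic subunit of polymerase delta, and Tyms were called higher (1.20 ± 0.45 and 0.80 ± 0.30). Without the pool that had the most of each, both calls were lost (1.03 ± 0.44, adjusted p = 0.078 and 0.62 ± 0.28, adjusted p = 0.0963). With the hepatocyte covariate Pold1 was at -0.36 (adjusted p = 0.89) and Tyms at 3.12 (adjusted p = 0.000181). Tested directly, the nude liver effect differed between captures and pools for 0 of 45 members (edgeR, with 13 at an unadjusted p under 0.05), against a background of 2.25% of 10471 genes (1.18% higher, 1.07% lower).

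In livers of immunocompetent F1 mice fewer members were called against the same spheroid captures. Of 44 tested, 3 were higher (Rfc2, Rpa1, Lig1) and 2 lower (Pcna, Ccne2), 11.4% against a background of 12.6% of 7309 genes (7.73% higher, 4.91% lower). On the log2 scale the members had a median of 0.10 and all tested genes one of 0.22. Both liver comparisons use the 28 spheroid captures, so their values are not independent of each other. Against only the 9 spheroid captures with at least 0.1% ERCC counts, 1 member was called higher and 1 lower, as were 124 and 50 of all 8897 genes tested.

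Pcna gave 3.29, 50.9 and 337 CPM in F1 liver captures, and 29 of 31 were below the lowest spheroid capture, a 4.37-fold fall (a log2 fold change of -2.13 ± 0.26, adjusted p = 3.13e-09). With Pcna-ps2 summed the log2 fold change was -1.70 (adjusted p = 1.27e-06). Rfc2 gave 113, 502 and 2069 CPM, with 16 of 31 captures above the highest spheroid capture (a log2 fold change of 2.08 ± 0.32, adjusted p = 2.63e-06). Lig1 gave 77.7, 275 and 1858 CPM, with 21 of 31 above the spheroid median (a log2 fold change of 1.23 ± 0.27, adjusted p = 0.000854). Most F1 captures thus lay outside the spheroid range for Pcna and Rfc2 but inside it for Lig1. Rpa1 gave 1.66, 24.7 and 235 CPM (a log2 fold change of 1.61 ± 0.54, adjusted p = 0.0371), a call lost without the F1 capture with the most Rpa1 (1.42 ± 0.54, adjusted p = 0.0682). Ccne2, a cyclin E, was low throughout, at 0, 2.72 and 58.2 CPM in spheroids and 0, 0.212 and 16.9 CPM in F1 liver (a log2 fold change of -1.99 ± 0.70, adjusted p = 0.0453). Without the spheroid capture with the most Ccne2 its value was -1.84 ± 0.70, adjusted p = 0.0685. With the hepatocyte covariate it was -1.43 (adjusted p = 0.375).

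The F1 pools gave 5 called members of 44, 11.4% against a background of 11.6% of 7249 genes (8.94% higher, 2.65% lower), with Dbf4, Rfc2, Lig1 and Uhrf1 higher and Pcna lower. limma-voom called 2 members higher and 19 lower, with 393 of all genes higher and 2946 lower, and DESeq2 called 4 members higher and 5 lower, with 703 of all genes higher and 767 lower. Pcna gave 10.5, 50.2 and 278 CPM in F1 pools, and 21 of 24 were below the lowest spheroid pool (a log2 fold change of -1.58 ± 0.41, adjusted p = 0.00656). Rfc2 gave 15.5, 795 and 3829.8 CPM (a log2 fold change of 1.99 ± 0.38, adjusted p = 0.000155) and Lig1 gave 4.09, 375 and 2566 CPM (a log2 fold change of 2.06 ± 0.39, adjusted p = 0.000115). Pcna, Rfc2 and Lig1 were called with the same sign in captures and pools, 60.0% of the members called in each, where the genes called in both were 34.3% and 39.5% of all genes called. However, Pcna in pools was -1.36 (adjusted p = 0.0821) with the hepatocyte covariate. Dbf4 was called in pools (a log2 fold change of 1.72 ± 0.58, adjusted p = 0.0421) but not without its highest F1 pool (1.50 ± 0.57, adjusted p = 0.075). Uhrf1 gave 0, 1.38 and 724 CPM, so its call (a log2 fold change of 2.78 ± 0.91, adjusted p = 0.0362) rests on 1 library of 724 CPM, and without that library the log2 fold change was 0.01 ± 0.61, adjusted p = 0.994. Against the 6 spheroid pools with at least 0.1% ERCC counts, 0 members were called (edgeR, 3 at an unadjusted p under 0.05), and 22 of all 8387 genes tested. Tested directly, the F1 effect differed between captures and pools for 1 of 46 members, Tyms (a log2 fold change of -1.32 ± 0.39, adjusted p = 0.0336), against a background of 4.06% of 9976 genes (2% higher, 2.05% lower). The Tyms call was also lost with limma-voom. Without the F1 pool with the most Tyms the difference was -1.22 ± 0.39, adjusted p = 0.0537.

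The liver groups were also compared directly, F1 against nude captures. Of 40 tested members, 5 were higher in F1 (Mcm2, Mcm5, Rfc4, Rrm1, Dut) and 3 lower (Dbf4, Ccne2, Uhrf1), 20.0% against a background of 18.4% of 7064 genes (10.5% higher, 7.9% lower). A positive log2 fold change was seen for 30 of 40 members, with a median of 0.33, and for 4169 of all 7064 tested genes, with a median of 0.24. Orc1, Cdc6, Gins3, Rpa3, Chaf1a and Brca1 did not pass the filter.

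Dut gave 15.6, 479.9 and 849 CPM in F1 liver against 0, 199 and 675 CPM in nude liver, and 24 of 31 F1 captures were above the nude median (a log2 fold change of 1.31 ± 0.35, adjusted p = 0.00399). Rrm1 gave 0.822, 256 and 1547 CPM in F1 liver (a log2 fold change of 1.50 ± 0.37, adjusted p = 0.00212), with 22 of 31 above the nude median of 119 CPM. Rfc4 gave 0.239, 81.3 and 782 CPM in F1 liver (a log2 fold change of 2.13 ± 0.57, adjusted p = 0.00438). Mcm2 and Mcm5 gave 1.89, 114 and 501 CPM and 13.5, 181 and 707 CPM in F1 liver, with log2 fold changes of 1.27 ± 0.46 (adjusted p = 0.0424) and 1.05 ± 0.36 (adjusted p = 0.0333). For each of these 5 genes the groups overlapped. Dbf4 gave 1.75, 18.1 and 120.3 CPM in F1 liver, where 12 of 31 captures were below the lowest nude capture (a log2 fold change of -1.31 ± 0.38, adjusted p = 0.00869). The lower Uhrf1 in F1 (a log2 fold change of -1.79 ± 0.59, adjusted p = 0.0241) was -0.58 ± 0.49, adjusted p = 0.451 without the nude capture of 632 CPM. Ccne2 (a log2 fold change of -1.79 ± 0.65, adjusted p = 0.0446) no longer passed the low-count filter without its highest nude capture. Mean hepatocyte marker sums were 453 ± 548 CPM in F1 and 1185 ± 1106 CPM in nude captures. With the hepatocyte covariate 5 members were again called higher and 3 lower, as were 550 and 481 of all 7064 genes. All 4 tested erythrocyte markers were higher in F1, with mean sums of 6097 ± 9359 CPM against 976 ± 1088 CPM in nude captures, and their part in these calls was not tested.

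Among pools, 6 of 39 tested members were higher in F1 than in nude liver (Mcm2, Mcm4, Mcm5, Cdc45, Rrm1, Uhrf1) and 0 lower, 15.4% against a background of 11.9% of 6010 genes (8.19% higher, 3.69% lower). Single libraries carried several of these calls. Rrm1 gave 0.545, 166 and 3695 CPM in F1 pools and 0.704, 23.6 and 511 CPM in nude pools (a log2 fold change of 3.26 ± 0.65, adjusted p = 0.000321), and without the highest F1 pool it stayed called at 2.15 ± 0.60, adjusted p = 0.0133. Mcm5 gave 0, 151 and 1766 CPM against 2.24, 55.0 and 400.1 CPM (a log2 fold change of 1.97 ± 0.50, adjusted p = 0.00589) and was 1.59 ± 0.49, adjusted p = 0.025 without its highest pool. Mcm2 (a log2 fold change of 2.45 ± 0.67, adjusted p = 0.0103) and Mcm4 (a log2 fold change of 2.39 ± 0.81, adjusted p = 0.0398) lost their calls without the F1 pool highest for each (1.27 ± 0.63, adjusted p = 0.179 and 1.86 ± 0.78, adjusted p = 0.105). Uhrf1 (a log2 fold change of 2.41 ± 0.70, adjusted p = 0.0165) turned to -0.30 ± 0.54, adjusted p = 0.763 without its highest F1 pool, and Cdc45 (adjusted p = 0.0141), at a median of 0.210 CPM in F1 and 0 in nude pools, then no longer passed the filter. Mcm2, Mcm5 and Rrm1 were thus called higher in F1 in captures and in pools, 3 of the 4 members called in both, and the fourth, Uhrf1, had opposite signs. The 4 are 57.1% of the members called in captures and 66.7% of those called in pools. For all genes the shared calls numbered 297 (25.8% and 44.1%), and 288 of those kept their sign between captures and pools. In pools the hepatocyte covariate left Mcm5 called (2.62 (adjusted p = 0.00699)) but not Mcm2 (1.59 (adjusted p = 0.481)) or Rrm1 (2.47 (adjusted p = 0.0848)). Of all 6010 genes it called 154 higher and 189 lower. limma-voom called 0 of 39 members (10 at an unadjusted p under 0.05), and 223 of all genes higher and 598 lower.

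Pre-cancerous RPC spheroids were compared with KP1 spheroids, both as 10-cell captures in culture. Crebbp and Rbl2 differ between these genotypes by label. Crebbp gave 5.28, 26.7 and 131 CPM in KP1 and 0.132, 15.6 and 138 CPM in RPC, and Rbl2, which encodes p130, gave 0, 0 and 75.1 CPM and 0, 0 and 22.3 CPM. As for Rb1, these whole-gene levels do not check the deletions. Of 45 tested members, 4 were higher in RPC (Mcm6, Dbf4, Rfc1, Rpa3) and 4 lower (Pola1, Pcna, Rrm1, Tyms), 17.8% against a background of 21.9% of 8600 genes (10.3% higher, 11.6% lower). RLE scaling moved the median of all genes from 0.01 to 0.16 and gave 7 members higher and 4 lower, and 1131 of all genes higher and 826 lower. TMMwsp scaling gave 4 and 6 members, and 796 and 1095 of all genes. Against only the 9 KP1 captures with at least 0.1% ERCC counts 7 members were called higher and 1 lower, and against the 19 under 0.1% 3 higher and 6 lower, where all genes gave 1013 higher and 772 lower, and 849 and 782.

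Mcm6, a subunit of the replicative helicase, gave 569.6, 1067 and 2696 CPM in RPC, and 23 of 24 captures were above the KP1 median (a log2 fold change of 0.87 ± 0.21, adjusted p = 0.000995). Rfc1 gave 1.49, 82.0 and 1112 CPM (a log2 fold change of 1.85 ± 0.50, adjusted p = 0.00409), with 21 of 24 above the KP1 median. Dbf4 gave 2.76, 18.1 and 203 CPM (a log2 fold change of 1.29 ± 0.46, adjusted p = 0.0347), a call lost without its highest RPC capture (0.72 ± 0.44, adjusted p = 0.249). Rpa3, the smallest subunit of the single-strand binding protein, gave 0, 0.912 and 4.33 CPM in KP1 and 0, 16.8 and 65.7 CPM in RPC, where 16 of 24 captures exceeded the highest KP1 capture. It was called higher (adjusted p = 1.66e-05), but it passed the low-count filter through the RPC captures and was near the limit of detection in KP1, so no fold is given. In the bulk library of KP1 spheroids Rpa3 stood at 21.7 CPM, above all 28 captures of the same line.

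Pcna was lower in RPC at 15.2, 157 and 535 CPM, with 12 of 24 captures below the lowest KP1 capture (a log2 fold change of -1.16 ± 0.24, adjusted p = 0.000205). With Pcna-ps2 summed its log2 fold change was -0.77 (adjusted p = 0.0195). Pola1, the catalytic subunit of polymerase alpha, gave 1.25, 24.6 and 148 CPM in KP1 and 1.37, 8.51 and 101 CPM in RPC (a log2 fold change of -1.61 ± 0.46, adjusted p = 0.00766). Rrm1 gave 47.3, 295 and 704 CPM in RPC (a log2 fold change of -0.89 ± 0.26, adjusted p = 0.0076), and Tyms gave 89.3, 433 and 1195 CPM in KP1 and 142, 287 and 537 CPM in RPC (a log2 fold change of -0.76 ± 0.21, adjusted p = 0.00559). The groups overlapped for each of these genes. All 5 nucleotide supply genes had negative log2 fold changes, with 2 called, where 11.6% of all genes were called lower.

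**Figure D5:**
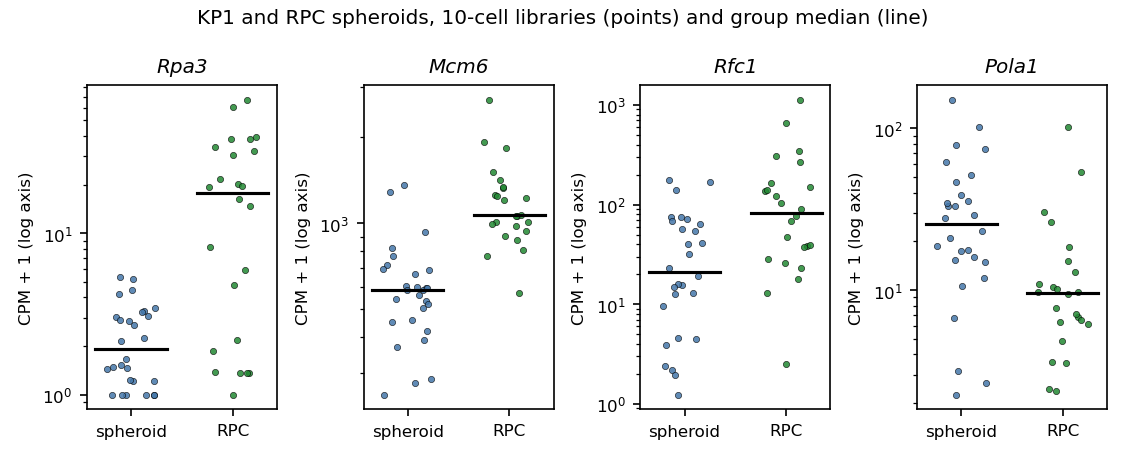
CPM + 1 (log axis) of Rpa3, Mcm6, Rfc1 and Pola1 in each KP1 and RPC spheroid capture (points) with the group median (line). The RPC medians are above the KP1 medians for Rpa3, Mcm6 and Rfc1 and below for Pola1.

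No member was called more or less variable in captures than in pools. Spread was how far each library's log2(CPM + 1) lay from its group's median, and limma compared it between captures and pools. In spheroids 0 of 44 members were called (limma, 4 at an unadjusted p under 0.05), with a background of 0% of 8602 genes. In nude liver 0 of 45 were called (4 at an unadjusted p under 0.05), with a background of 0.777% of 9397 genes (0.564% more and 0.213% less spread). In F1 liver 0 of 45 were called (10 at an unadjusted p under 0.05), with a background of 1.48% of 8759 genes (0.537% more and 0.948% less spread), and 37 of 45 members had less spread in captures than in pools, as did 5357 of all 8759 genes. Deviations taken from the group mean called 6 members in F1 liver, 1 with more and 5 with less spread in captures, and 1094 of all 8759 genes, 354 with more and 740 with less. The F1 pools also had the highest median spike-in share of all groups, 13.2% against 2.16% in F1 captures, and the part of this in the spread was not tested.

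Within a group, members detected in at least 90% of libraries were weakly correlated across libraries. The median Spearman correlation over all pairs of such members was 0.14 in spheroid captures (39 members, 28 libraries), 0.12 in nude liver (32 members, 33 libraries), 0.13 in F1 liver (35 members, 31 libraries) and 0.15 in RPC (44 members, 24 libraries). These values share library size and composition and are given as a description. The highest pair values were 0.75 for Mcm4 and Mcm5 in spheroid captures, 0.74 for Mcm2 and Mcm7 in nude liver and 0.77 for Rfc3 and Rrm1 in F1 liver.

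Bulk spheroid RNA, prepared by another protocol with 1 library per line, was set beside the captures. The bulk KP1 level lay inside the range of the 28 KP1 captures for 36 members, above it for 9 (Mcm2, Mcm4, Dbf4, Ccne2, Pola1, Rfc1, Rpa3, Chaf1a, Uhrf1) and below it for Dut. That is 19.6% above and 2.17% below, against 31.5% and 3.32% of the 10674 genes with at least 5 CPM as the mean of both kinds of library. Uhrf1 stood at 327 CPM in bulk KP1 against a capture mean of 5.18 ± 6.43, and Ccne2 at 161 against 9.25 ± 13.8 (mean ± SD, n = 28). Pcna stood at 352 CPM, close to the capture median of 290.3. Among the 4 bulk lines the highest value of a member was a median of 1.57 times its lowest. KP2 had the most Pcna, 702 CPM, with the other lines between 336 and 371, and the most Dut, 560.0 CPM, with the others between 175 and 245.

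Other genes of the pathway also moved in both directions between nude liver and spheroid captures. Of 28 tested replication genes outside the members, 6 were higher and 3 lower, 32.1% against the background of 33.8% of all genes. Timeless and Tipin, whose proteins form 1 fork-protection complex, were called in opposite directions. Timeless was higher, with medians of 0.492 CPM in spheroids and 5.38 in nude liver (adjusted p = 0.000857), and Tipin was lower (a log2 fold change of -2.09 ± 0.48, adjusted p = 0.000409). Dna2, a nuclease of Okazaki fragments, rose from a median of 0.878 CPM to one of 39.4 (adjusted p = 0.000102). Timeless and Dna2 passed the low-count filter through the nude captures, so no fold is given for them. Top2a, the topoisomerase of S phase and mitosis, fell (a log2 fold change of -1.19 ± 0.27, adjusted p = 0.000349). Among 18 tested regulators of the E2F and RB families, 1 was higher and 3 lower, 22.2% and below that background. E2f1 itself gave 5.03, 38.6 and 89.6 CPM in spheroids, 5.23, 57.1 and 393 CPM in nude liver, 0.913, 58.9 and 371 CPM in F1 liver and 23.4, 63.1 and 558 CPM in RPC. It was called higher in nude liver (a log2 fold change of 0.92 ± 0.33, adjusted p = 0.0225), F1 liver (a log2 fold change of 1.17 ± 0.39, adjusted p = 0.0381) and RPC (a log2 fold change of 1.26 ± 0.32, adjusted p = 0.00237), all against the same spheroid captures. Cdk4, the G1 kinase that phosphorylates RB, was lower in nude liver (a log2 fold change of -1.13 ± 0.33, adjusted p = 0.00474) and in RPC (a log2 fold change of -1.61 ± 0.28, adjusted p = 5.81e-06). Of 21 other tested E2F targets, 3 were higher and 2 lower in nude liver (23.8%, also below it). Of 15 replication-dependent histone genes only Hist1h2bc passed the filter in nude liver, where it was lower (a log2 fold change of -2.63 ± 0.66, adjusted p = 0.00104). Its median was 30.4 CPM in spheroids and 3.34 CPM in nude liver, with counts in 22 of 33 nude captures, so the size of the fold is uncertain. Replication-dependent histone mRNAs mostly lack the poly(A) tail that the method primes from. In F1 liver captures 5 of 28, 2 of 16 and 0 of 20 genes of these lists were called (the last with 4 at an unadjusted p under 0.05), against a background of 12.6%. In RPC these counts were 2 of 31, 3 of 17 and 8 of 22, against a background of 21.9%.

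Counting could affect some of these values, since 16 members overlap another annotated gene and it is not given whether counting used strand. Rfc2 overlaps Lat2, which gave 0, 0 and 13.7 CPM in spheroids and 0, 0 and 2.92 CPM in nude liver. Rfc4 overlaps Eif4a2, at 0.713, 13.7 and 156 CPM and 0, 7.57 and 268 CPM, and Lig1 overlaps 6330408A02Rik, at 0, 0.218 and 50.1 CPM and 0, 0 and 40.6 CPM. Some overlapping genes differed in the direction of their member. Wsb2, which overlaps Rfc5, had a median of 5.81 CPM in spheroids and 12.4 in nude liver, and Ints8, which overlaps Ccne2, had 1.82 in spheroids and 0.368 in F1 liver. The median of Eif4a2 was also lower in nude liver, as was that of Rfc4. The part of these genes in the Rfc4, Rfc5 and Ccne2 calls was not tested. Pcna, Dbf4, Rfc1, Rpa1, Rrm1 and Dut overlap no annotated gene in the table.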

How the data were processed

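The authors deposited expected counts per gene for 199 libraries. RSEM, Bowtie2 and the builds GRCm38 and GRCh38.p12 are named in the submitters' processing notes, and their versions are not given in the sources used here. Per the labels' protocols, captures were reverse transcribed from the poly(A) tail, amplified by PCR and tagmented. No molecular identifiers are mentioned there, so counts are not taken as independent molecules.

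The 92 ERCC rows were set aside, CPM was computed over the other 31581 genes, and expected counts were rounded for testing. edgeR 4.0.16 (R 4.3.3) fitted each comparison across all genes with TMM scaling, its default filter on low counts and robust quasi-likelihood F tests, called at a Benjamini-Hochberg adjusted p under 0.05. Spread was compared with limma 3.58.1 on log2(CPM + 1) in genes averaging 5 CPM or more. Log2 fold changes depend on edgeR's prior count where a group is near 0. The scripts were tested on simulated data. The closest pair of libraries differed by far more than sampling noise (chi-square per degree of freedom 29.1).

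The members, the lists of other genes and the comparisons were chosen with earlier results of these data known. All 46 members could be named, and other genes only from the lists of related genes and markers or where a result turned on them. Alternatives were other scalings and filters, limma-voom, DESeq2 1.42.0, thinning to 718149 counts, Fisher's exact test on detection, a replicate block, a hepatocyte covariate and subsets of libraries. Summing Pcna with Pcna-ps2, dropping libraries over 5% ERCC and dropping the library highest in a called gene were added after seeing the data.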

Additional observations from a re-analysis of the deposited data

Results flagged for a closer look

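For Tyms, thymidylate synthase, the change between F1 liver and spheroids differed between 10-cell captures and pools by -1.32 on the log2 scale (edgeR interaction test, adjusted p = 0.0336), a difference between 2 kinds of library under the same contrast. Its log2 fold change was -0.41 ± 0.25 in captures (adjusted p = 0.303) and 0.89 ± 0.32 in pools (adjusted p = 0.0568). The call was lost with limma-voom and with the replicate block. Without the F1 pool of 1243 CPM the difference was -1.22 ± 0.39, adjusted p = 0.0537.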

How the results depend on the processing

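Of 881 values recomputed for the 62 called members and comparisons, 675 kept direction and call, 189 kept direction and lost the call, and 17 turned sign. Of 123 counts of called members, 88 stayed within 1.5 times the main count. Nude liver captures gave 15 called members (7 higher, 8 lower), but 27 with limma-voom (8 and 19), 3 by detection, 6 with the hepatocyte covariate and 8 against spheroids with at least 0.1% ERCC. In the same order all genes gave 2647 of 7834, then 3862 of 7834, 1907 of 18565, 958 of 7834 and 1857 of 9507. F1 captures gave 5 (3 and 2), but 8 with no filter (6 and 2), 11 with limma-voom (3 and 8), 10 with DESeq2 (7 and 3), 1 by detection, 2 and 3 against spheroids with at least and under 0.1% ERCC, and 1 for the 5 F1 captures low in the pseudogene Rpl19-ps11. All genes gave 924 of 7309, then 5072 of 19000, 1743 of 7309, 1417 of 7309, 531 of 17210, 174 of 8897, 675 of 7861 and 379 of 10381. F1 against nude captures gave 8, but 0 by detection (Fisher's exact test, 2 at an unadjusted p under 0.05) and 1 for the low Rpl19-ps11 captures. There all genes gave 1303 of 7064, 711 of 18546 and 253 of 10754. RPC gave 8, but 1 by detection, where all genes gave 1885 of 8600 and 1330 of 17401. Nude pools gave 14 (7 and 7), but 32 with limma-voom (6 and 26), 7 with the covariate and 2 against spheroid pools with at least 0.1% ERCC. For these all genes gave 2055 of 8010, 4777 of 8010, 1093 of 8010 and 776 of 9498. F1 pools gave 5 (4 and 1), but 21 with limma-voom (2 and 19), 9 with DESeq2 (4 and 5), 9 with the covariate (8 and 1), 0 (edgeR, 3 unadjusted) and 3 by the ERCC split, and 13 for low Rpl19-ps11. Here all genes gave 840 of 7249, then 3339, 1470 and 1266 of 7249, 22 of 8387, 637 of 7729 and 1890 of 10035. F1 against nude pools gave 6, but 0 with limma-voom (10 unadjusted), 3 when thinned, 0 by detection (1 unadjusted) and 2 with the covariate. In this comparison all genes gave 714 of 6010, 821 of 6010, 452 of 3923, 290 of 18481 and 343 of 6010. The difference between captures and pools gave 1 nude liver member with no filter in place of 0, and 2 F1 members in place of 1 with RLE scaling or no filter (Tyms and Ccne2, both lower) and with limma-voom, where Tyms lost its call and Mcm2 and Cdc6 were higher. Spread centred on the mean gave 6 in F1 in place of 0. With TMM scaling the summed level was 5855 CPM in spheroid pools and 9454 in F1 pools. The cause of these shifts was not tested.

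The sign turned for Uhrf1 in F1 pools against spheroids with limma-voom (-0.42), DESeq2 (-0.14) and detection (-18.3 percentage points), and against nude pools with limma-voom (-0.29), the covariate (-0.60), high Rpl19-ps11 pools (-0.073), detection (-13.3 points) and without its highest library (-0.30). By detection it also turned in F1 against nude liver for Rrm1 (-0.20 points in captures, -1.31 in pools), Mcm5 (-4.17 points in pools) and Cdc45 (-1.19 points in pools). Pold1 in nude pools turned with the covariate (-0.36).

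Replicate numbers did not pair the libraries: correlations of same-numbered libraries ran from -0.16 to 0.30, and 1 or 2 libraries per comparison matched their own number best. With the replicate block, 20 members were called in nude captures (7 higher, 13 lower), 6 in F1, 6 in F1 against nude and 10 in RPC captures, and 23 (5 and 18), 10 (1 and 9) and 0 (edgeR, 0 unadjusted) in nude, F1 and F1 against nude pools. Over all genes the calls were 2843, 1044, 938 and 2090 in captures and 3372, 2074 and 204 in pools, in the same order. For the differences between captures and pools the block gave 0 in nude liver and 1 in F1, which was Cdc6, higher, and not Tyms. It gave 0 for spread (limma, 4 to 6 unadjusted). Signs turned under the block for Tyms in nude pools (-0.034), Uhrf1 in F1 pools against spheroids (-0.71) and nude pools (-0.42), and Cdc45 in F1 against nude pools (-0.68). Members low in KP1 captures and pools, such as Orc1 and Rpa3, could not be included in most tests, and the part of depth in this was not tested.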
